A study of Mus musculus with 14 samples.

Results

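Tandem poly(A) sites are neighbouring cleavage positions on the same strand, at either of which a transcript can be cut and given its poly(A) tail. Those described here lay at least 100 and under 300 nt apart, measured between the positions of the upstream (proximal) and the downstream (distal) site. Poly(A) sites of 14 mouse libraries were merged by strand into 155772 autosomal sites, of which 17919 had 20 or more tags in 2 or more libraries. Of 17881 neighbouring pairs of kept sites, 440 lay under 100 nt apart and 1314 lay 100 to under 300 nt apart. Members were chosen by tag counts and distance. A site with under 5% of the pair's tags, summed over the 14 libraries, left out 214 of these. A pair total that reached 20 tags in fewer than 6 tissue libraries left out 303 more, and 797 pairs remained. With the same limits, 3304 pairs lay 100 to 5000 nt apart, so these were the closest-spaced class beside 1132 pairs 300 to under 1000 nt apart and 1375 pairs 1000 to 5000 nt apart.

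The libraries were made by 3P-seq, which sequences the ends of polyadenylated RNA at the position where it was cleaved. Heart, muscle, liver, lung, white adipose tissue (WAT) and kidney each gave 1 wild-type and 1 miR-22 knockout library. Cultured cells gave 1 library of mouse embryonic stem cells (mESC) and 1 of 3T3, a fibroblast line. The labels give the genetic background 129S5/SvEvBrd for all 14, name no genotype for the cell cultures, give no age, and say that no group was replicated biologically. Which tissues came from the same mouse was not stated, so the p-values below measure the spread between these libraries. Libraries held 2036838 to 6010465 tags, of which 1823134 to 5624331 were autosomal, and 2.43% to 31.3% of a library's tags were mitochondrial. Positions are those of build mm9, counted from 1. An annotation of that build was not used here, so pairs are named by position and the tissue labels were not checked against marker genes.

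Where both sites lie in the last exon of a gene, cleavage at the proximal site gives a shorter 3′ untranslated region, and cleavage at the distal site adds sequence that RNA-binding proteins and microRNAs can bind. The choice between sites is made by the cleavage and polyadenylation machinery on the nascent RNA and is known to differ between cell types. MicroRNAs pair with such regions mainly through their seed, the bases near the 5′ end. The microRNA removed in the knockout mice is given because the genotype comparison turns on its absence. RefSeq (build GRCm38.p6) gives these mature sequences, with the seed, bases 2 to 8, in capitals.
mmu-miR-22-3p: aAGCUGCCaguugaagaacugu
mmu-miR-22-5p: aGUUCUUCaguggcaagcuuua

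The 797 pairs were spread over all 19 autosomes, from 21 on chromosome 15 to 67 on chromosome 11, with 426 on the plus and 371 on the minus strand. Distances had a median of 182 nt and quartiles of 141 and 233 nt. The pairs used 1533 distinct sites. Of these, 61 sites were the distal member of a pair and the proximal member of the next, so the pairs are not all independent; 681 pairs shared no site. Tags summed over the 14 libraries ran from 212 to 69464 per pair with a median of 1539, and the pairs held 4.94% of all autosomal tags. In 357 pairs every tissue library had 20 or more tags, and 62 pairs met that depth in exactly 6.

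Neither site was the dominant one as a class. The distal site held a median of 52.7% of a pair's tags (quartiles 26.6% and 77.0%) and more than 50% in 418 of 797 pairs. In 472 pairs (59.2%) it held 20 to 80%, in 151 under 20% and in 174 over 80%. These shares and totals entered the rule, which required 5% at each site, and are given as a description. At that limit, the pair at 79986305 and 79986518 on the plus strand of chromosome 12 was just inside with 5.01% of its 12647 tags at the distal site. The pair at 25931773 and 25931571 on the minus strand of chromosome 17 was just outside with 4.99% of 3345 tags. By distance, a pair on chromosome 4 at exactly 100 nt had a distal share of 54.6% and one on chromosome 12 at 99 nt, left out, of 71.2%. Pairs at 298 nt were kept (distal shares 86.8% and 16.0%), and pairs at 300 nt, left out, had shares of 16.5% and 10.6%.

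**Figure D1:**
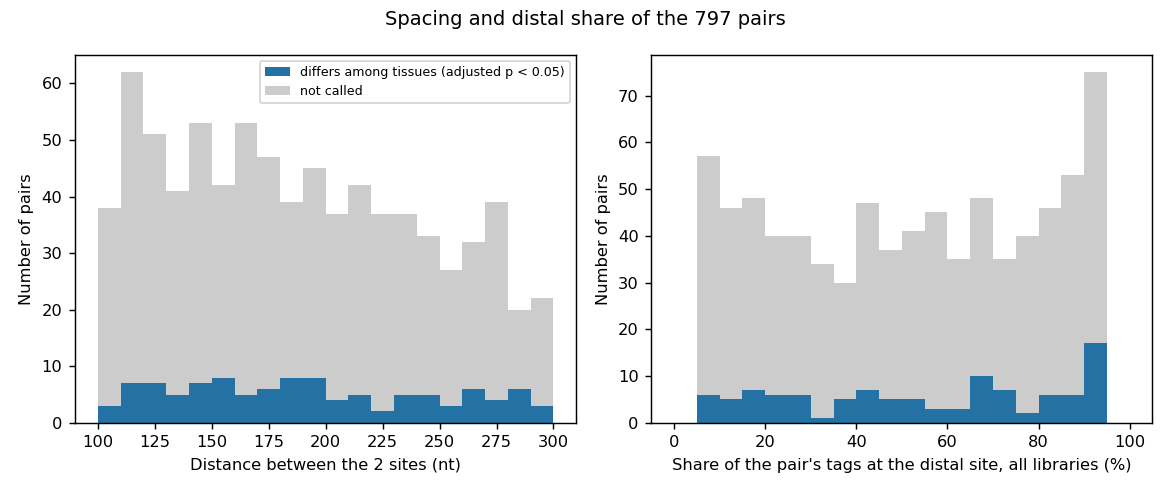
Number of pairs (y axis) by distance between the sites in nt (left) and by the distal site's share of all tags in percent (right), stacked, with pairs that differed among tissues (edgeR F test, adjusted p under 0.05) in blue and the others in grey. Distances have a median of 182 nt, shares fill the whole range from 5% to 95%, and the 107 called pairs occur across both ranges.

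The space between the sites was mostly free of other cleavage. In 285 pairs (35.8%) at least 1 weaker site, too sparse to be kept, lay between them, but only in 25 did such sites hold 5% or more of the tags counted at and between the sites, and the highest value was 24.0%. The merged intervals were a median of 79 nt wide at proximal and 77 nt at distal sites; how the deposited intervals were drawn is not stated, so these widths are not a measure of the spread of cleavage. Another kept site lay within 5000 nt upstream of 295 pairs and downstream of 319 pairs. For 298 pairs (37.4%) there was none on either side.

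The pair with the most tags, 69464, lay on chromosome 18 at a distance of 110 nt and had a narrow range of use. Its distal share ran from 73.6% to 88.4% in the 12 tissue libraries (median 82.6%), with 68.5% in mESC and 68.3% in 3T3. The second, at 139749308 and 139749161 on the minus strand of chromosome 7 (147 nt, 48901 tags), had the largest totals in liver, 12766 tags in wild type and 8883 in knockout. Its distal share ranged from 47.8% in wild-type kidney to 86.5% in knockout WAT; wild-type WAT was at 48.1%.

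Other abundant pairs were high in 1 tissue and still used both sites there. The pair at 122903655 and 122903530 on the minus strand of chromosome 5 (125 nt) had 17505 tags in wild-type and 19121 in knockout heart, with 58.7% and 69.6% at the distal site, against at most 1351 tags in any other library. The pair at 23157814 and 23158038 on the plus strand of chromosome 16 (224 nt) had 15910 and 8801 tags in WAT, with distal shares of 60.4% and 43.6%. It had 0 tags in wild-type liver, mESC and 3T3. None of these 4 pairs passed the test of a difference among tissues (edgeR F test, adjusted p between 0.275 and 0.506). A pair on chromosome 9 with 30287 tags, also among the 5 with the most, did pass (edgeR F test, adjusted p 0.00915). It met the 5% limit only through the cell cultures and is described with them below.

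The typical distal share was nearly the same in every tissue. Over pairs with any tag in the library, the median ran from 48.4% in wild-type WAT to 54.7% in knockout lung, with lower quartiles of 24.7% to 29.0% and upper quartiles of 75.4% to 80.8%. Tissue means of the wild-type and knockout medians were 49.2% ± 1.10 in WAT, 51.4% ± 0.41 in liver, 53.3% ± 1.74 in heart, 53.6% ± 0.36 in kidney, 53.9% ± 1.13 in lung and 54.2% ± 0.21 in muscle (SD, n = 2). WAT lay lowest, and the order among heart, kidney, lung and muscle was within the spread between the libraries of a tissue. In the 306 pairs with 20 or more tags in all 14 libraries, the medians ran from 45.4% to 53.2% in the tissues, with knockout WAT the lowest.

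Over pairs with any tag in the library, the cell cultures had similar medians, 50% in mESC and 48.7% in 3T3, but a wider spread. Their lower quartiles, 14.5% and 16.8%, were below those of all 12 tissue libraries, and their upper quartiles were 82.8% and 79.8%. The 3T3 upper quartile lay within the range of the tissues. In the 306 pairs with 20 or more tags in all 14 libraries, the medians were lower, 45.8% in mESC and 43.5% in 3T3. There 3T3 lay below all 12 tissue libraries, and mESC below all but knockout WAT. In pairs 1000 to 5000 nt apart with any tag, mESC and 3T3 had median distal shares of 40% and 39.6%, against 49.1% to 59.6% in the tissues. In the closest class the medians of culture and tissue over pairs with any tag lay nearer to each other, a difference between classes that was not tested. The wider class was not compared on pairs shared by all libraries.

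Across the 306 pairs, the ranking of distal shares was largely shared between libraries. Spearman's rho was 0.886 to 0.952 between the wild-type and knockout library of a tissue, 0.764 to 0.943 between tissues and 0.494 to 0.809 where a cell culture was involved. These are correlations across pairs, which are not independent replicates, and all libraries share the choice of pairs. The library nearest in rank was that of the same tissue for 8 of the 12 tissue libraries. Wild-type WAT, wild-type kidney and knockout heart were nearest to knockout lung, the deepest library, and knockout kidney to knockout liver. The mESC and 3T3 libraries were nearest to each other (rho 0.809).

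For site choice in single pairs, the distal and proximal tags of the 12 tissue libraries were fitted together with edgeR's quasi-likelihood model. A shift is the log2 ratio between the distal-to-proximal odds of a tissue and the mean of the other 5, so that positive means more distal. Adjusted p-values are over all 3304 pairs, with 0.05 as the threshold. At least 1 difference among tissues was found in 107 of these pairs, or 13.4%, where 21.8% of all 3304 pairs were called. The shares called were 17.1% of pairs 300 to under 1000 nt apart and 30.5% of pairs 1000 to 5000 nt apart. Median totals per pair over the 14 libraries were 1539, 1408.5 and 1359 tags in the 3 classes. They include the cell cultures, which were not fitted, and the part of depth in the difference between classes was not tested. The count fell to 43 without wild-type muscle, 64 without knockout muscle, 69 without wild-type liver and 66 without knockout liver.

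Within the close class, the calls did not follow the distance, with 29 of 245 pairs called at 100 to under 150 nt, 35 of 226 at 150 to under 200 nt, 21 of 186 at 200 to under 250 nt and 22 of 140 at 250 nt or more. Depth did move with the calls. Of the 200 pairs with the most tags (3038 or more) 42 were called, and of the 199 with the fewest (817 or less) 18. In the 48 pairs with 100 or more tags in every tissue library, wild type and knockout of a tissue differed by a median of 4.16 percentage points, and the range of the tissue means had a median of 14.1 points. That range reached 20 points in 14 of the 48 pairs and 50 points in 1, where it was 66.3 points.

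The clearest difference among tissues was in the pair at 24665484 and 24665687 on the plus strand of chromosome 17 (203 nt). The distal site held 18.4% and 5.67% of the tags in wild-type and knockout liver and 17.4% and 28.4% in kidney. It held 80.7% and 72.7% in lung and 95% and 100% in WAT. Liver and kidney thus used the proximal site, and lung and WAT the distal. Heart was between at 33.3% and 66.7%, but on 24 and 18 tags, and muscle had only 9 and 10 tags. Liver's proximal site stood at 28.4 and 74.7 tags per 1000000 autosomal tags, against 2.53 and 8.00 in lung. The 3T3 library, with 718 tags, put 99.9% at the distal site. The edgeR F test gave an adjusted p of 6.17e-06, and at most 0.000127 under any alternative.

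A similar split was seen at 131866664 and 131866938 on the plus strand of chromosome 4 (274 nt). Liver had distal shares of 44.4% and 38.6%, heart of 50% and 54.8%, and kidney of 48.4% and 64.6%. Lung stood at 87.8% and 82.1%, muscle at 87.7% and 89.5%, and WAT at 95.9% and 98.9%. The pair was called more proximal in liver (log2 shift −2.75 ± 0.48 SE, adjusted p 0.0009) and more distal in WAT (4.19 ± 0.67, adjusted p 0.00084). The liver call was lost without knockout liver (adjusted p 0.137) and the WAT call without knockout WAT (0.0897), while the F test held under every alternative (adjusted p at most 0.000498). In mESC and 3T3 the distal site held 97.7% and 99.6%.

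Striated muscle tissues stood apart from liver, lung and kidney at 180259449 and 180259167 on the minus strand of chromosome 1 (282 nt). The distal share was 22.2% and 49.6% in heart and 22.6% and 22.0% in muscle. It was 77.1% and 72.6% in liver, 94.2% and 82.9% in lung, and 88.0% and 71.4% in kidney, with WAT at 55.1% and 33.1%. The values of heart and muscle lay below all those of liver, lung and kidney, and WAT overlapped with heart. The proximal site's level varied less than the distal site's. It ran from 15.9 to 78.8 tags per 1000000 over the 12 libraries, where the distal site ran from 9.59 to 259 and reached 2968 in mESC and 1149 in 3T3. The F test gave an adjusted p of 4.2e-05 in edgeR.

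**Figure D2:**
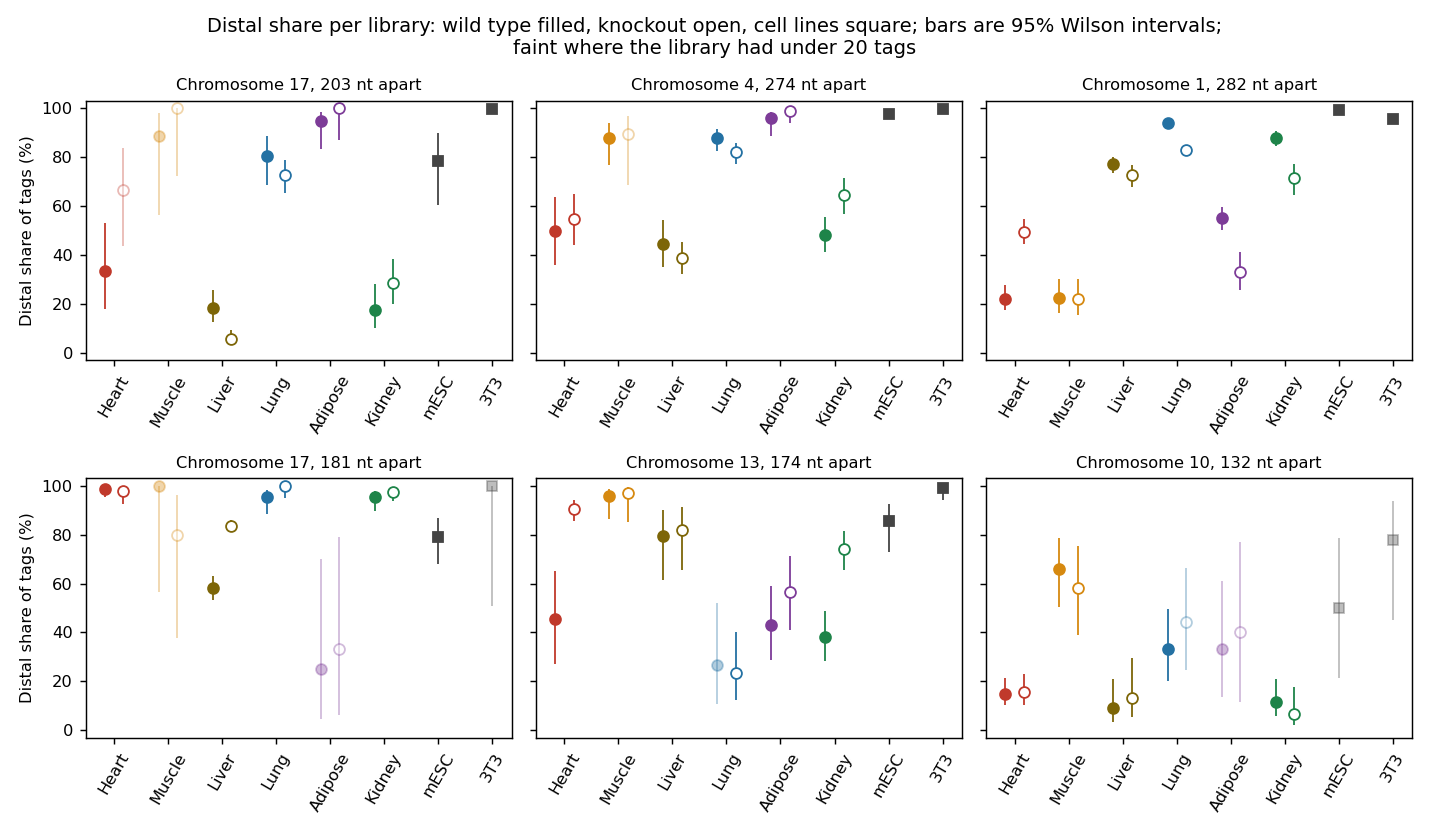
Distal share of tags in percent (y axis) per library (x axis) for the 6 pairs with the smallest p of any difference among tissues: filled circles are wild type, open circles knockout, squares the cell cultures, bars 95% Wilson intervals of counting error, faint symbols libraries with under 20 tags in the pair. In the first panel liver and kidney lie between 5.67% and 28.4% and lung between 72.7% and 80.7%; in the lower middle panel the wild-type and knockout heart values differ by more than their intervals.

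Lung had the most tissue-specific pairs. There 33 pairs were more distal, 4.14% of the class, where 7.96% of all 3304 pairs were, and 24 were more proximal, where 2.88% were. Both lung libraries lay beyond the other 10 in 167 of the 263 distal and 48 of the 95 proximal calls over all 3304 pairs. In this class that held for 22 of the 33 pairs (5.05% of all 3304 pairs met both limits) and 14 of the 24 (1.45%). In pairs 1000 to 5000 nt apart 12.3% were more distal in lung and 2.76% more proximal. Distal calls exceeded proximal calls by less at close spacing, a contrast between classes that was not tested. The median log2 shift of the class was −0.01, against 0.24 over all 3304 pairs. The lung libraries were the deepest, with a median of 146 and 212 tags per pair against 25 to 89 elsewhere. The part of depth in these counts was not tested. The counts were 7 and 11 without wild-type lung. The proximal count was 11 without wild-type muscle and 15 without wild-type liver, knockout liver or knockout muscle.

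In the pairs called for lung, the median level of 1 site was higher than in other tissues and that of the other site was near it. Among the 33 pairs called more distal, the distal site's level was a median log2 difference of 1.65 above the other tissues and the proximal site's −0.12. Among the 24 called more proximal, the medians were 1.63 for the proximal and −0.00 for the distal site. Over all 797 pairs both kinds of site were higher in lung, by 0.50 for the proximal and 0.60 for the distal site. Against that higher base, the median of 1 site was higher and that of the other lower in both directions. A call requires such a difference between the sites, so this is a description. Among the 33 distal calls the distal site was higher than in the other tissues in 31 and the proximal site in 15. Among the 24 proximal calls the proximal site was higher in 23 and the distal site in 11.

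The pair at 24337298 and 24337090 on the minus strand of chromosome 8 (208 nt) shows the distal direction. Its distal share was 76.2% and 59.2% in wild-type and knockout lung and 12.7% to 47.4% (median 39.4%) in the other 10 tissue libraries. Pairs named for a tissue were chosen for such a separation. The shift was 2.01 ± 0.47 SE (edgeR, adjusted p 0.0086), and without wild-type lung 1.79 (adjusted p 0.0818). In the proximal direction, the pair at 22872180 and 22872393 on the plus strand of chromosome 16 (213 nt) had distal shares of 10.2% and 11.7% in lung and 23.3% to 41.7% (median 30.4%) in the others. The shift was −1.90 ± 0.42 SE (adjusted p 0.00575), and without wild-type lung −1.73 (adjusted p 0.0773). The mESC and 3T3 libraries were lower than the 10, like lung, at 0.84% and 8.67%.

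Higher up the share scale, lung's distal site was nearly the only one used. At 124532311 and 124532480 on the plus strand of chromosome 4 (169 nt) lung had 94.5% and 92.7%, and the other tissues 60% to 85.9%. At 4686141 and 4686307 on the plus strand of chromosome 12 (166 nt) lung had 98.3% and 96.5%, and the others 71.1% to 95.6%. Both lost the call without wild-type lung (adjusted p 0.0543 and 0.0655).

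In muscle 12 pairs were more distal, where 3.54% of all 3304 pairs were, and 14 more proximal, where 2.75% were. Both muscle libraries lay beyond the other 10 in 69 of the 117 distal and 49 of the 91 proximal calls over all 3304 pairs. In this class that held for 5 of the 12 (2.09% of all pairs) and 6 of the 14 (1.48%). The counts were 0 and 0 without wild-type muscle and 3 and 5 without knockout muscle, while without knockout lung 20 pairs were more distal. Muscle libraries were shallow here, with a median of 38 and 25 tags per pair. In the 12 distal calls the proximal site was lower (median log2 difference −0.98) and the distal site higher (1.18) than in other tissues. In the 14 proximal calls the distal site was lower (−1.49) and the proximal site higher (0.73). Over all 797 pairs the medians in muscle were −0.79 and −0.76, so both directions lay on a lower base.

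At 94943464 and 94943332 on the minus strand of chromosome 10 (132 nt) the distal site held 65.9% and 58.3% in muscle. It held 6.67% to 33.3% (median 13.3%) in the 7 other tissue libraries with 20 or more tags. The shift was 2.79 ± 0.53 SE (edgeR, adjusted p 0.0016), and 2.44 without wild-type muscle (adjusted p 0.243). Heart, the other striated muscle, was at 15.0% and 15.7% in this pair. At 110054734 and 110054840 on the plus strand of chromosome 12 (106 nt) muscle was low instead, 50% and 61.1% against 62.9% to 92.4% (median 86.4%). The shift there was −2.33 ± 0.50 SE (adjusted p 0.00468), and without wild-type muscle −1.73 (adjusted p 0.396).

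A run of 3 sites on the minus strand of chromosome 6, at 13820127, 13819908 and 13819804, formed a pair of 219 nt and a pair of 104 nt that share the middle site. In wild-type and knockout muscle the first site held 62.8% and 47.8% of the tags of all 3, the middle site 15.1% and 27.8%, and the last 22.1% and 24.4%. In lung the middle site held 85.1% and 70.5%, and the last 5.71% and 7.26%. In liver the middle site held 71.7% and 69.7%, and the first 10.4% and 10.5%. Muscle was thus low at the middle site, where lung and liver had most of their tags.

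The level of the middle site was 9.59 and 13.6 tags per 1000000 in muscle, the lowest of the 12 tissue libraries, and 61.7 and 86.4 in lung, the highest. The first site stood at 39.97 and 23.5 in muscle and at 2.81 and 2.56 in liver. The first pair was more proximal in muscle (shift −2.99 ± 0.51 SE, edgeR, adjusted p 0.000713) and the second more distal in muscle (2.30 ± 0.50, adjusted p 0.00506) and more proximal in lung (−2.16 ± 0.47, adjusted p 0.00534). Without wild-type muscle the 2 muscle calls had adjusted p-values of 0.223 and 0.277, and the second had 0.0705 without knockout muscle. Without wild-type lung the lung call had 0.137. Both cell cultures were like the other tissues at the last site, with 9.63% in mESC and 18.9% in 3T3. At the first site 3T3 had 15.7%, within the range of the tissues other than muscle. There mESC had 45.2%, between knockout heart at 40.6% and knockout muscle at 47.8%.

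In WAT 8 pairs were more distal, where 1.51% of all 3304 pairs were, and 15 more proximal, where 2.88% were. Both WAT libraries lay beyond the other 10 in 26 of the 50 distal and 62 of the 95 proximal calls over all 3304 pairs. In this class that held for 6 of the 8 (0.787% of all pairs) and 10 of the 15 (1.88%). None in either direction remained without knockout WAT, and 5 and 3 without wild-type WAT. The distal count was 4 without wild-type and 5 without knockout muscle. At 23473906 and 23473785 on the minus strand of chromosome 11 (121 nt) the distal share was 13.4% and 12.9% in WAT and 27.1% to 63.9% (median 39.95%) in the others. The shift was −2.35 ± 0.53 SE (edgeR, adjusted p 0.0113), with adjusted p-values of 0.138 and 0.169 without the wild-type and knockout WAT library. At 75234711 and 75234593 on the minus strand of chromosome 9 (118 nt), WAT was at 40.2% and 28.1% and the others at 55.2% to 82.5%. The shift was −2.08 ± 0.46 SE (adjusted p 0.0102), with adjusted p-values of 0.0598 without wild-type and 0.254 without knockout WAT.

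An abundant pair moved by less. At 155198269 and 155198463 on the plus strand of chromosome 4 (194 nt, 7121 tags), the distal share was 91.9% and 97.2% in WAT and 75.2% to 89.4% (median 84.0%) in the others. The shift was 1.97 ± 0.42 SE (edgeR, adjusted p 0.00865), and 1.41 without knockout WAT (adjusted p 0.276).

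In liver 7 pairs were more distal, where 1.73% of all 3304 pairs were, and 6 more proximal, where 2.63% were. Both liver libraries lay beyond the other 10 in 33 of the 57 distal and 40 of the 87 proximal calls over all 3304 pairs. In this class that held for 4 of the 7 (0.999% of all pairs) and 5 of the 6 (1.21%). Without wild-type or knockout liver no pair was called more distal, and 3 and 1 were called more proximal. Without wild-type lung there were 13 in each direction, and without knockout lung 10 more proximal. Without wild-type muscle there were 2 and 3, and the distal count was 4 without wild-type kidney, 2 without knockout heart and 3 without knockout muscle. In the 6 proximal calls the proximal site's level was a median log2 difference of 2.59 above the other tissues, and the distal site's −0.48. At 106362376 and 106362521 on the plus strand of chromosome 11 (145 nt, 10308 tags) the distal share was 84.5% and 72.3% in liver and 87.2% to 99.3% (median 94.6%) in the others. The shift was −2.42 ± 0.49 SE (edgeR, adjusted p 0.00374), with −1.69 (0.334) without knockout liver and −2.28 (0.0502) in limma.

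Liver's distal calls included the pair at 57474721 and 57474461 on the minus strand of chromosome 9 (260 nt). Its distal share was 82.6% and 68.5% in liver and 22.9% to 56.2% (median 51.2%) in the 8 other libraries with 20 or more tags. The shift was 2.43 ± 0.50 SE (edgeR, adjusted p 0.00418), with adjusted p-values of 0.276 and 0.0599 without the wild-type and knockout liver library.

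In kidney 5 pairs were more distal, where 1.69% of all 3304 pairs were, and 8 more proximal, where 2.33% were. Both kidney libraries lay beyond the other 10 in 22 of the 56 distal and 35 of the 77 proximal calls over all 3304 pairs. In this class that held for 3 of the 5 (0.666% of all pairs) and 2 of the 8 (1.06%). None was called without wild-type kidney, and 3 and 3 without knockout kidney. Without wild-type lung, and likewise without knockout lung, the counts were 11 and 13. Without wild-type muscle they were 2 and 2, without wild-type liver 3 and 2, and without knockout muscle 3 and 2. The proximal count was also 3 without wild-type heart, 4 without knockout liver and 4 without knockout WAT. At 72063046 and 72063188 on the plus strand of chromosome 12 (142 nt, 4902 tags) the distal share was 40.1% and 33.0% in kidney and 3.17% to 20.8% (median 14.3%) in the other 10, of which heart and WAT were the lowest. The shift was 2.27 ± 0.45 SE (edgeR, adjusted p 0.00449), and 2.001 without wild-type kidney (adjusted p 0.234). The proximal calls included 115151724 and 115151588 on the minus strand of chromosome 9 (136 nt), with 66.0% and 76.1% in kidney and 84.4% to 99.0% (median 95.7%) in the 9 others with 20 or more tags. That shift was −2.78 ± 0.57 SE (adjusted p 0.00646), and −2.10 without wild-type kidney (adjusted p 0.326).

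Heart had the fewest. No pair was called more distal by edgeR, where 1.12% of all 3304 pairs were. An unadjusted p under 0.05 was reached by 45 pairs, 5.65% of the class, and by 6.08% of all 3304 pairs, so the count was near the background. DESeq2 called 0 pairs more distal in heart and limma 4. In the proximal direction 5 pairs were called, where 1.91% of all 3304 were. Both heart libraries lay beyond the other 10 in 30 of the 63 proximal calls over all 3304 pairs. In this class that held for 2 of the 5 (0.908% of all pairs). Without wild-type heart no pair was proximal, and the count was 3 without wild-type muscle, 2 without wild-type liver, 2 without knockout muscle and 8 without wild-type lung. Without wild-type muscle, wild-type lung, knockout heart, knockout lung or knockout kidney, 1 pair was called more distal. At 116662817 and 116662569 on the minus strand of chromosome 4 (248 nt) the distal share was 15.7% and 17.9% in heart and 22.4% to 89.6% (median 45.9%) in the others. WAT was at the top of that pair with 61.2% and 89.6%. The pair was called for both tissues (heart −2.37 ± 0.57 SE, edgeR, adjusted p 0.021; WAT 2.59 ± 0.54, adjusted p 0.00657). The heart call was lost without wild-type heart (adjusted p 0.198) or knockout heart (0.307), and the WAT call without knockout WAT (0.299).

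**Figure D3:**
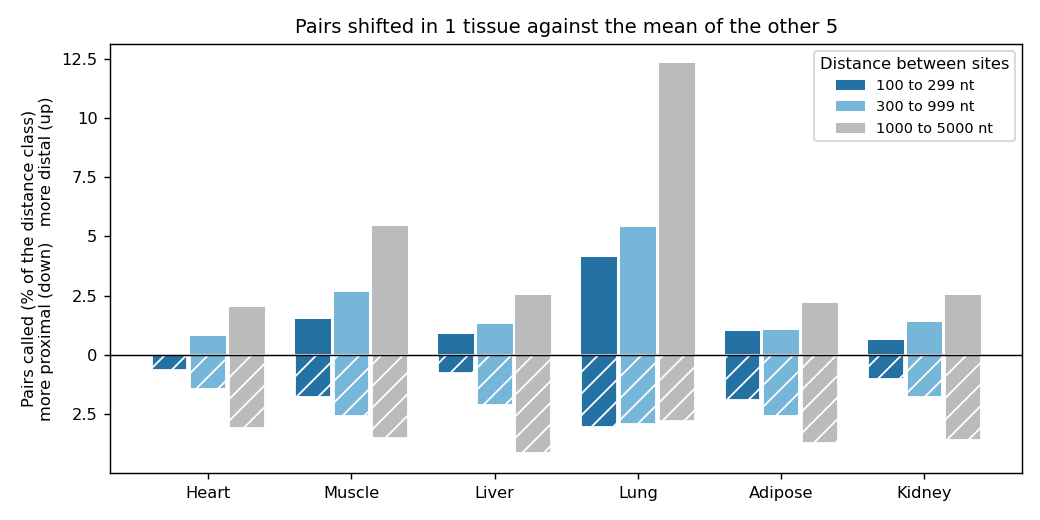
Percent of the pairs in each distance class (y axis) called by edgeR as more distal (bars up) or more proximal (hatched bars down) in 1 tissue against the mean of the other 5 (x axis). In the class under 300 nt apart lung has the tallest bars, 4.14% up and 3.01% down, and heart has none up; lung's bar at 1000 to 5000 nt reaches 12.3%.

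Over the 6 tissues, 108 pairs (13.6%) were called in at least 1, where 22.3% of all 3304 pairs were. Of these, 84 (10.5%) were called in exactly 1, where 15.3% of all pairs were, and 24 (3.01%) in 2 or more, where 7.08% were. The 108 pairs are not the same set as the 107 called by the F test. Both ways called 78 pairs, a single tissue alone 30 and the F test alone 29. P-values were adjusted separately for each tissue and for the F test. A tissue's share is a property of its mixture of cells, so a change of cell types and a change of site choice within a cell type cannot be told apart in these bulk libraries.

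The comparison of genotypes asks whether loss of miR-22 moved tags between the sites of a pair by an amount shared by the tissues. No pair was called in either direction by edgeR, where 0.0303% of all 3304 pairs were called more distal and 0.0% more proximal. At an unadjusted p under 0.05, 30 pairs (3.76%) were more distal in knockout, where 3.9% of all 3304 pairs were, and 13 (1.63%) were more proximal, where 2.78% were. DESeq2 and limma called 0 as well. The median log2 shift of the 797 pairs was 0.00, with 403 above 0. The median standard error of a pair's shift was 0.40.

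The pair with the smallest p, at 43664109 and 43664307 on the plus strand of chromosome 4 (198 nt), had distal shares in wild type and knockout of 81.0% and 27.2% in heart, 80.8% and 59.5% in lung, and 51.9% and 23.1% in kidney. They were 48.1% and 33.3% in liver, 43.5% and 21.4% in WAT, and 39.8% and 42.9% in muscle. Knockout was lower in 5 of 6 tissues, with a shift of −1.46 ± 0.38 SE (edgeR, adjusted p 0.322). The pair at 52965392 and 52965523 on the plus strand of chromosome 7 (131 nt) was lower in knockout in 6 of 6 tissues. Its wild-type shares were 89.7% to 95.9% and its knockout shares 82.2% to 92.4% (shift −1.10 ± 0.33 SE, adjusted p 0.536).

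In the other direction, the pair at 67678993 and 67679251 on the plus strand of chromosome 5 (258 nt) was higher in knockout in 6 of 6 tissues. Wild-type shares were 4.24% to 13.1% and knockout shares 8.07% to 30.2%, and the ranges of the genotypes overlapped. The shift was 1.24 ± 0.36 SE (edgeR, adjusted p 0.526). None of these passed the threshold under any alternative.

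Within a single tissue the genotypes have 1 library each and no test. In the 48 deep pairs the median difference between genotypes ran from 2.65 points in liver to 5.59 points in heart, and the 90th percentile from 8.46 points in liver to 22.3 points in WAT. At 86184591 and 86184417 on the minus strand of chromosome 13 (174 nt) heart went from 45.5% (22 tags) in wild type to 90.7% (182 tags) in knockout and kidney from 38.1% to 74.3%. In the other tissues the values were 43.2% and 56.8% in WAT, 79.3% and 81.8% in liver, 95.9% and 97.1% in muscle and, on 15 and 34 tags, 26.7% and 23.5% in lung. The genotype shift over the tissues was 1.49 ± 0.48 SE (edgeR, adjusted p 0.628). The pair was called more distal in muscle (shift 4.45 ± 0.82 SE, edgeR, adjusted p 0.00139), and not without wild-type muscle (adjusted p 0.296).

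**Figure D4:**
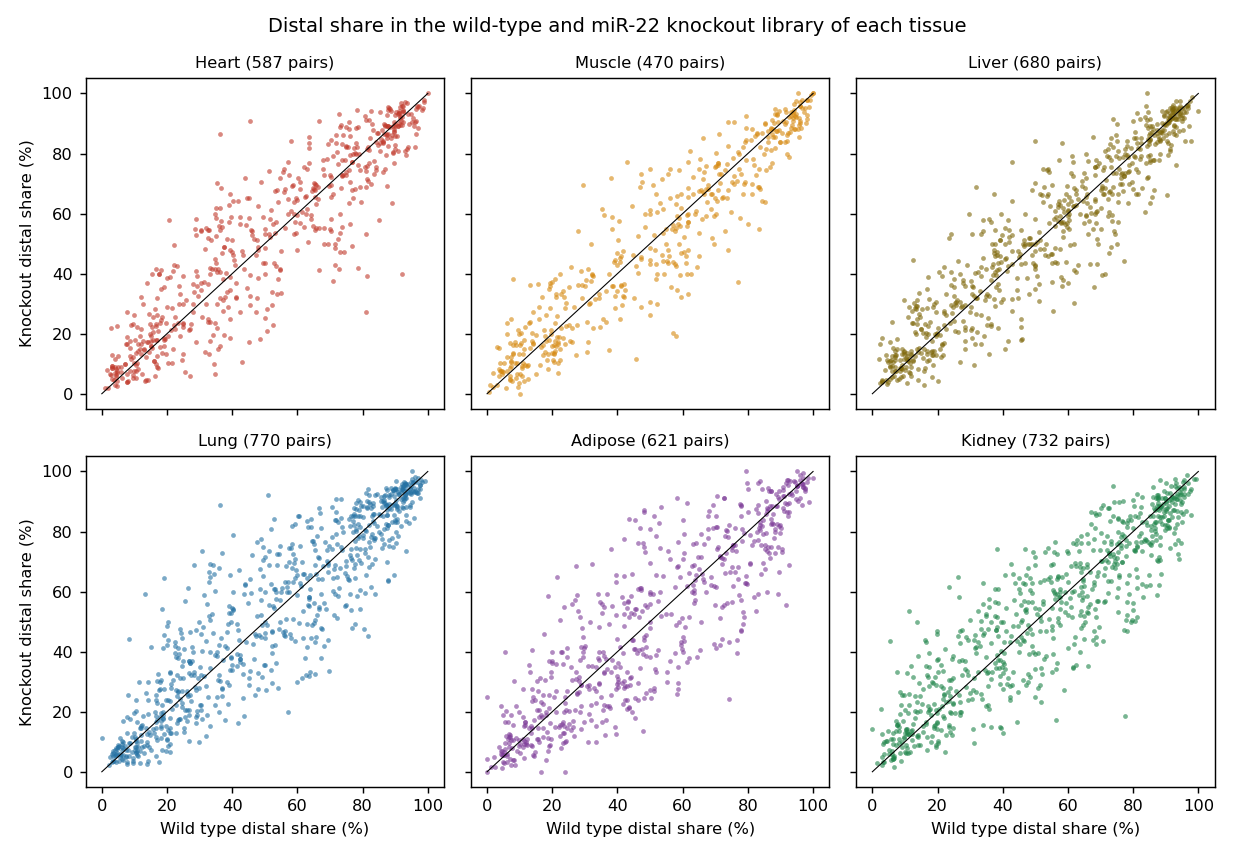
Distal share in percent of each pair in the wild-type (x axis) and knockout (y axis) library of a tissue, 1 point per pair with 20 or more tags in both; the line marks equal shares. Points scatter on both sides of the line in all 6 tissues, from 470 pairs in muscle to 770 in lung.

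The cell cultures, with 1 library each and no test, departed from the tissues in many pairs and in both directions. Of 440 pairs with 50 or more tags in mESC, the distal share in mESC was above that of every tissue library with 20 or more tags in 123 (28.0%), where 24.1% of all pairs with that depth were. It was below all of them in 155 (35.2%), where 42.6% were. Of 484 such pairs in 3T3, 118 (24.4%) were above, where 21.4% were, and 155 (32.0%) below, where 39.2% were. The cultures are set against the same 12 tissue libraries, so these counts share their reference. Set against the 10 libraries of the other tissues, a tissue library was above all in 5.05% to 18.8% of its pairs and below all in 7.33% to 19.7%. With a minimum of 100 tags, chosen after seeing the data, mESC was above the tissues in 94 of 340 pairs (27.6%), where 24.2% of all pairs were, and below in 121 (35.6%), where 43.9% were. With that minimum 3T3 was above in 87 of 353 (24.6%), where 21.6% were, and below in 113 (32.0%), where 39.9% were. In mESC 57 pairs (13.0%) lay above by 10 points or more, where 12.2% of all pairs did, and 87 (19.8%) below, where 25.2% did. In 3T3 46 pairs (9.5%) lay above by that much, where 9.28% of all pairs did, and 79 (16.3%) below, where 20.9% did.

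The widest gap was in the pair at 64026322 and 64026472 on the plus strand of chromosome 9 (150 nt, 30287 tags). Its distal site held 6.73% of the tags of the 14 libraries, but under 5% in every tissue library. The pair thus met the 5% limit only through the cultures, where it was high, and its gap is given as a description. All 12 tissue libraries used the proximal site, with a distal share of 0.49% to 3.50% (median 2.10%) on 814 to 5166 tags. In mESC the distal site held 85.9% of 1525 tags (95% Wilson interval 84.1% to 87.6%), and in 3T3 77.4% of 266 tags (72.0% to 82.1%). The proximal site stood at 341 to 1372 tags per 1000000 in the tissues, 61.7 in mESC and 15.6 in 3T3. The distal site stood at 6.71 to 24.7 in the tissues, 376 in mESC and 53.7 in 3T3. Both sites thus differed, in opposite directions. Within the tissues the pair was lowest in muscle, at 0.49% and 0.74%, and was called more proximal there (shift −1.83 ± 0.42 SE, edgeR, adjusted p 0.00805). Without wild-type muscle the adjusted p was 0.296, and without knockout muscle 0.0841.

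Several pairs were high in 1 culture with a different value in the other. At 77396344 and 77396530 on the plus strand of chromosome 5 (186 nt) the distal share was 93.3% in mESC and 71.4% in 3T3, and 3.33% to 26.9% (median 10.7%) in the tissues. At 137699614 and 137699785 on the plus strand of chromosome 6 (171 nt) it was 78.2% in mESC but 6.78% in 3T3, within the 3.18% to 18.2% of the tissues. At 87864993 and 87865114 on the plus strand of chromosome 11 (121 nt) it was 94.5% in 3T3 and 49.6% in mESC, and 6.49% to 31.0% in the tissues. At 38621952 and 38622197 on the plus strand of chromosome 15 (245 nt) it was 96.4% in 3T3 and 84.9% in mESC, and 7.67% to 32.8% in the tissues. These 4 pairs were chosen for lying above the tissues in 1 culture. In the other culture 3 of them were above the tissues and 1 was not.

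Other pairs lay below the tissues in culture. At 122813004 and 122813294 on the plus strand of chromosome 5 (290 nt, 10505 tags) the distal site held 7.79% in mESC and 42.0% in 3T3, and 70.2% to 88.8% (median 83.3%) in the tissues. At 88987444 and 88987704 on the plus strand of chromosome 17 (260 nt) it held 9.36% in mESC and 5.06% in 3T3, and 68.0% to 89.5% in the tissues. At 21221947 and 21221676 on the minus strand of chromosome 11 (271 nt, 17344 tags) it held 88.7% to 96.5% in the tissues and 11.3% in 3T3 (71 tags, Wilson interval 5.82% to 20.7%). The mESC library had only 14 tags in that last pair.

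The pair at 51414579 and 51414398 on the minus strand of chromosome 11 (181 nt) differed both among tissues and in culture. Its distal share was 92.9% to 94.9% in liver and kidney, 80.8% to 91.0% in heart and lung, 60.3% and 79.1% in WAT, and 60.4% and 52.2% in muscle. It was 19.1% in mESC and 18.5% in 3T3. The edgeR F test over the tissues gave an adjusted p of 0.0012.

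**Figure D5:**
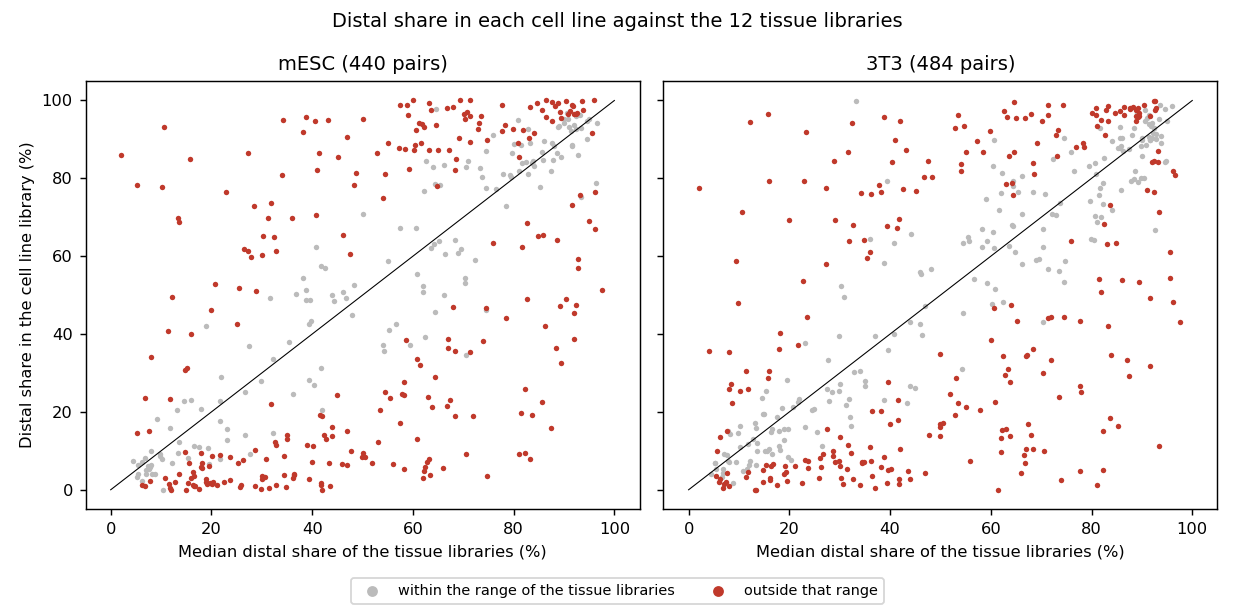
Distal share in percent in mESC (left) and 3T3 (right) on the y axis against the median of the tissue libraries on the x axis, 1 point per pair with 50 or more tags in the culture; red points lie outside the range of the tissue libraries with 20 or more tags. Red points fill both the upper left and the lower right, 123 above and 155 below for mESC and 118 above and 155 below for 3T3.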

How the data were processed

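Per the submitters' processing notes, bases were called with CASAVA 1.7 and reads aligned with Bowtie to mm9. The sources used here do not say how reads became sites. The deposited values are estimated counts of tags at each site, without scaling; in a library 1.21% to 5.79% of sites carry a value that is not whole, for a reason the sources used here do not give. An offset of 1 in the track lines of 13 files was not applied, so a browser may draw positions 1 nt away, and the mESC file has no track line.

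Overlapping or touching intervals of the same strand were merged over the 14 libraries, values summed and rounded, and the 3′ end of the interval with the most tags taken as the position. Chromosomes M, X and Y were left out. Proximal and distal counts of the 12 tissue libraries were fitted in R 4.3.3 with edgeR 4.0.16 (terms for library, for site by tissue and for site by genotype; 5 residual degrees of freedom) on all 3304 pairs, with Benjamini-Hochberg adjustment. With genotype as a term, the wild-type and knockout libraries stood as replicates of a tissue. The common biological coefficient of variation was 0.262. Site levels are tags per 1000000 autosomal tags, compared as log2 after adding 1. Wilson intervals cover counting error only, since tags carry no molecular identifiers. The fit was tested on simulated counts.

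Members, lists and rules were chosen with earlier results of these data known. Named pairs are, per tissue and direction, up to 3 called pairs of smallest p whose 2 libraries lie beyond the others; the 10 of smallest F test p; 3 per direction for genotype, none called; the 5 with the most tags; and 3 per direction and culture with the widest gap. Not all are printed. Alternatives were DESeq2 1.42.0, limma 3.58.1 on log2 ratios with 0.5 added, other limits on sites and pairs, other merging, no genotype or no tissue term, and leaving out each library or tissue.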

Additional observations from a re-analysis of the deposited data

How the results depend on the processing

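No paired analysis was possible because the labels give no replicate numbers; the genotype test itself compares the libraries within each tissue, through its tissue terms. Each value below stands for the pairs of the report, or for those that pass the changed limit, and the cause was not tested unless named. Knockout calls were 0 in both directions under all alternatives. With sites of 50 tags in 2 libraries, 61 pairs differed among tissues; 1 was more distal in heart, 20 in lung and 2 in kidney, and 2 were more proximal in heart, 9 in muscle, 12 in lung and 2 in kidney. With 20 tags in all 12 tissue libraries, which tests fewer pairs, 59 differed; 3 were more distal in liver, 21 in lung, 4 in WAT and 2 in kidney, and 2 were more proximal in heart, 8 in muscle, 2 in liver, 12 in lung and 1 in kidney. Limma called 4, 21, 16 and 3 more distal in heart, muscle, lung and kidney, and 22 and 5 more proximal in muscle and lung. DESeq2 called 14 more proximal in lung and 3 in kidney. With each site at 10% or more, 3, 9 and 5 were more proximal in heart, muscle and kidney, and library medians were 50% in wild-type heart and in both liver libraries, 52.6% and 52.3% in wild-type and knockout kidney, 48.9% in mESC and 46.4% in 3T3. With sites of 10 tags in 2 libraries 1 pair was more distal in heart; with no filter on sites 2 were in heart and 4 in liver. With no minimum depth of the pair 5 were more proximal in kidney. Over pairs with 20 tags in the library, medians were 50% in wild-type heart and knockout muscle, 52.7% in wild-type liver, 48.3% in knockout WAT and 48.6% in mESC.

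Without 1 library at a time, 43 to 121 pairs differed among tissues. More distal and more proximal counts were 0 to 1 and 0 to 8 in heart, 0 to 20 and 0 to 16 in muscle, 0 to 13 and 1 to 13 in liver, 7 to 36 and 11 to 24 in lung, 0 to 9 and 0 to 21 in WAT, and 0 to 11 and 0 to 13 in kidney. Leaving out a library of the tissue itself leaves 1 sample there, assumed to vary like the others. Every tissue call of a named pair was lost without at least 1 of that tissue's own libraries. Most repeats counted next kept both of them. Of 659 repeats of the named pairs' tissue shifts, 591 stayed past the threshold, 68 did not (63 of them without 1 library) and none changed sign. The 205 repeats of the F tests all stayed past it.

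Depth limits the precision of each share: libraries had a median of 25 tags per pair in knockout muscle to 212 in knockout lung, and the part of depth in the counts of calls was not tested.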
